A study of Homo sapiens with 24 samples.

Results

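Histone lysine methylation enzymes are the methyltransferases and demethylases that place methyl groups on lysines of the histone tails and take them off again. The members here were chosen by gene symbol, with name patterns for the KDM, SETD, SETDB, MLL and KMT families, EHMT1 and EHMT2, SUV39H, SUV420H, NSD1, WHSC1, WHSC1L1, DOT1L, EZH1 and EZH2, and ASH1L. The patterns matched 52 gene groups of the count tables, of which 6 MLLT genes, which are no enzymes of this kind, were left out, and 0 lay on chromosome Y. This left 46 genes of 13236 and their 51 detained introns of 4769. All 46 genes passed the filter on low counts in every comparison.

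Polyadenylated RNA was sequenced from HEK293T cells, an established line of human embryonic kidney origin that carries the SV40 large T antigen. OSMI-2 (10 µM) blocks OGT, the enzyme that attaches O-GlcNAc, and TMG (5 µM) blocks OGA (listed as MGEA5), the enzyme that removes it. Cells were given either drug for 2 h or 6 h after a change of medium, and each drug and time had its own DMSO libraries. The 8 groups are therefore OSMI-2 2 h, its DMSO 2 h, OSMI-2 6 h, its DMSO 6 h, TMG 2 h, its DMSO 2 h, TMG 6 h and its DMSO 6 h, with 3 libraries each, named a, b and c, except OSMI-2 6 h with 2 (a and b). The labels do not say whether libraries of a group came from separate cultures, so p-values measure only the spread between these libraries. In such bulk samples fewer cells with a transcript and less of it per cell cannot be told apart.

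Methylation of histone lysines marks chromatin states. Methylation of H3K4 goes with active promoters and enhancers, that of H3K36 and H3K79 with transcribed gene bodies, that of H3K27 and H3K9 with silent chromatin, and that of H4K20 with compaction and the cell cycle. A detained intron is one that stays in an otherwise spliced, polyadenylated transcript held in the nucleus, so that a gene with such introns keeps a pool of RNA that is not translated. OGT adds a single sugar to serines and threonines of nuclear and cytoplasmic proteins, and its partner HCFC1 is also part of H3K4 methyltransferase complexes.

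Total counts per library ran from 39465746 to 100161560. The HEK293T markers VIM (306 to 787 CPM, the count scaled to a fixed library total), CDH2 (30.0 to 141 CPM), KRT8 and KRT18 were present in all 23 libraries, and NEFM was low (0.30 to 2.21 CPM). Of the markers of other cell types reported here, PTPRC, CD3E, PECAM1, CDH5 and ALB are not listed in the tables, and COL3A1 (at most 0.793 CPM) and COL1A1 (at most 20.4 CPM) were low. As a check of the treatments, OGT stood at 42.7 to 65.5 CPM with OSMI-2 at 6 h and at 128 to 289 CPM with DMSO (edgeR adjusted p 0.000346), and MGEA5 stood at 255 to 265 CPM with TMG at 6 h and at 148 to 166 CPM with DMSO (edgeR adjusted p 6.01e-06). Neither gene passed at 2 h with either drug.

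The DMSO 6 h libraries of the OSMI-2 experiment stood apart, and each result that uses them has to be read with this in view. Detained introns held 2.19%, 2.07% and 1.58% of the members' gene counts in these 3 libraries, against 0.616% to 0.65% in the DMSO 2 h libraries of the same experiment and 0.520% and 0.549% in the OSMI-2 6 h libraries. In the TMG experiment the share was 0.659% to 0.788% (DMSO 2 h), 0.818% to 0.953% (TMG 2 h), 0.779% to 1.15% (DMSO 6 h) and 0.980% to 1.08% (TMG 6 h). DMSO 6 h library a of the OSMI-2 experiment also differed from all other libraries of that experiment in how counts depend on GC content: its slope of log2 count on transcript GC was 0.428 per 10 percentage points, and the others' slopes ran from 0.841 to 1.15. Results at 6 h of OSMI-2 are given below with and without that library where it changes them. The slopes in the TMG experiment ran from -0.531 to -0.228, so levels are not compared between the experiments.

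In DMSO the members spanned more than 2 orders of magnitude per base. KDM1A, the flavin-dependent demethylase of H3K4, was the highest, at 83.6 ± 11.9 CPM per kilobase of its bins outside detained introns (SD, n = 12 DMSO libraries of both experiments). KDM5C, a JmjC demethylase of H3K4, followed at 58.0 ± 9.3 CPM per kilobase. These were the first and the second by mean in each of the 4 DMSO groups. EHMT2, the H3K9 methyltransferase G9a, stood at 33.2 ± 9.2 CPM per kilobase and came next in both DMSO groups of the OSMI-2 experiment, while in those of the TMG experiment EZH2 was above it (27.2 against 22.0 at 2 h and 32.3 against 29.1 CPM per kilobase at 6 h), as was SETD8 at 2 h (32.3). The ranges over the 12 libraries overlapped between KDM1A (57.1 to 98.7) and KDM5C (47.3 to 77.3), while the highest EHMT2 library (46.7) lay just below the lowest KDM5C library. KDM4C, at 0.216 ± 0.109 CPM per kilobase, was the lowest in each of the 4 DMSO groups. Its bins outside detained introns sum to 68877 bases and those of KDM4B to 34192, against a members' median of 6004. Such lengths lower the values per kilobase, so the rank of KDM4C and KDM4B and the span above rest in part on bin length. KDM4D has 1 such bin, of 387 bases. SETDB2 (1.42 ± 0.93) and KDM4D (1.2 ± 0.62 CPM per kilobase) were low as well, but in the TMG experiment KDM4B was below both (1.18 at 2 h and 1.4 CPM per kilobase at 6 h). SETDB2 is named for its likeness to the H3K9 methyltransferase SETDB1 and the KDM4 enzymes remove methyl groups from H3K9. Among the H3K27 methyltransferases, EZH2, the main catalytic subunit of PRC2, stood at 22.4 ± 8.5 and its paralog EZH1 at 5.21 ± 2.49 CPM per kilobase. EZH2 was the higher by mean in each DMSO group, while the ranges over the 12 libraries overlapped slightly (11.5 to 33.7 and 2.9 to 11.8). The EZH2 means were 13.8 and 16.4 in the OSMI-2 and 27.2 and 32.3 in the TMG experiment. The SDs over 12 libraries thus include differences between the experiments. The SUV420H2 gene is merged with AC020922.1 in the tables, and its values cannot be split between them.

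These genes are long and rich in detained introns. The members' median exonic length was 6004 bases, against 3041 over all genes in the tables, with a median GC content of 48.5% against 48.8%. A detained intron was annotated in 26 of 46 members (56.5%), against 3150 of 13236 genes in all (23.8%). The members also had more bins outside detained introns, with a median of 24.5 against 10 over all genes. The share was not set against that of genes with as many bins. KDM4A, SETD5 and SETDB1 hold 4 each, and ASH1L, DOT1L, KMT2D and SETD1A hold 3 each. By role, the H3K4 methyltransferases hold 13, the H3K9 methyltransferases and H3K9 demethylases 8 each, and the H3K36 methyltransferases 7, while the 3 H4K20 methyltransferases hold 0. EZH1_E003, named after its values were seen, took 4.46% to 5.73% of the EZH1 counts in the DMSO 2 h libraries of the TMG experiment, more than any other member intron there.

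OSMI-2 for 2 h gave 0 calls among the 46 genes and 0 among the 33 member introns tested (edgeR quasi-likelihood test, Benjamini-Hochberg adjusted over all features, threshold 0.05). The background was 0% of 12343 genes in either direction, and 0% higher and 0.129% lower of 3107 introns; DESeq2 also called 0 of the member genes and introns. At an unadjusted p under 0.05 there was 1 member gene, SUV420H1, which dimethylates and trimethylates H4K20. It stood at 10.0, 10.3 and 7.65 CPM with DMSO and at 7.13, 7.22 and 6.57 CPM with OSMI-2, so each OSMI-2 library was lower, a log2 fold change of -0.42 (SE 0.17, edgeR adjusted p 0.9996). Of the 34 introns tested relative to their gene, 0 passed (limma; background 0% higher and 0.0643% lower of 3111), and 0 had an unadjusted p under 0.05. Every OSMI-2 library was above every DMSO library in 0 and below in 1 of 46 genes (background 2.45% and 2.11%), and by percent of the gene in 0 and 1 of 33 introns (background 2.54% and 6.82%). EZH2 (-0.26, SE 0.15), EZH1 (-0.04, SE 0.14), KMT2E (0.00, SE 0.21) and KDM1A (-0.11, SE 0.14) had log2 fold changes within 2 SE of 0, with groups that overlapped.

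At 6 h of OSMI-2 the detained introns of these enzymes were lower than in the DMSO libraries in nearly every gene that has one. The level fell in 44 of 51 introns and rose in 1 (edgeR; background 86.3% lower and 0.599% higher of 4677), and the median log2 fold change was -1.69 for the members' introns and -1.55 for all introns tested. Relative to their own gene, 47 of 51 fell and 0 rose (limma on the log2 ratio of intron to gene counts, 1 added to each; background 89.2% lower and 0.217% higher of 4616). The shares are near the background, so the members moved as detained introns in general did. These values all rest on the DMSO 6 h libraries described above: the OSMI-2 6 h share of the members' counts (0.520% and 0.549%) was also below the DMSO 2 h share of that experiment (0.616% to 0.65%), by far less than it was below the DMSO 6 h share. When libraries were scaled on introns alone, which removes a shift shared by all introns, 6 of 51 member introns were higher and 5 lower, against 10.6% higher and 5.82% lower of 4691 introns in all.

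By role, 11 of 13 introns of H3K4 methyltransferases, 8 of 8 of H3K9 methyltransferases, 5 of 7 of H3K36 methyltransferases, 3 of 3 of H3K4 demethylases, 6 of 8 of H3K9 demethylases and 5 of 5 of the other SETD genes fell. KMT2B_E037 (chromosome 19, 36224774 to 36227492 on the plus strand, 2719 bases, hg19), an intron of a H3K4 methyltransferase, took 1.6%, 1.31% and 0.824% of the gene's counts in DMSO a, b and c and 0.136% and 0.112% with OSMI-2. Every DMSO library thus lay several-fold above both OSMI-2 libraries, and the level changed by -3.14 on the log2 scale (SE 0.41, 8.83-fold lower, edgeR adjusted p 3.00e-12). KDM3A_E023 (chromosome 2, 86712983 to 86716440, plus strand, 3458 bases), in an H3K9 demethylase, took 4.6%, 4.74% and 4.86% of the gene with DMSO and 0.751% and 0.553% with OSMI-2 (log2 fold change -3.23, SE 0.49, edgeR adjusted p 9.29e-10).

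KMT2D is the main H3K4 monomethyltransferase of enhancers together with KMT2C; its intron KMT2D_E005 (chromosome 12, 49416659 to 49417835, minus strand, 1177 bases) took 1.16%, 0.782% and 0.883% with DMSO and 0.138% and 0.0980% with OSMI-2 (log2 fold change -2.75, SE 0.40, edgeR adjusted p 2.48e-10). KMT2D_E007 (chromosome 12, 49417884 to 49418360, 477 bases), next to it, had only 8 and 4 counts in OSMI-2 a and b but 34, 49 and 26 in DMSO a, b and c. It differed by -2.82 relative to its gene (SE 0.41, limma adjusted p 3.29e-11). SETD2 is the enzyme that trimethylates H3K36. Its 17825-base intron SETD2_E004 (chromosome 3, 47061331 to 47079155, minus strand) took 2.29%, 3.06% and 1.23% with DMSO and 0.113% and 0.272% with OSMI-2, and had the largest fall of the 51 introns relative to its gene (log2 change -3.41, SE 0.36, limma adjusted p 5.07e-19). In all these introns the groups did not overlap; over all member introns every OSMI-2 library lay below every DMSO library in 48 of 51, against a background of 91.5%, and above in 1, against 0.706%.

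**Figure D1:**
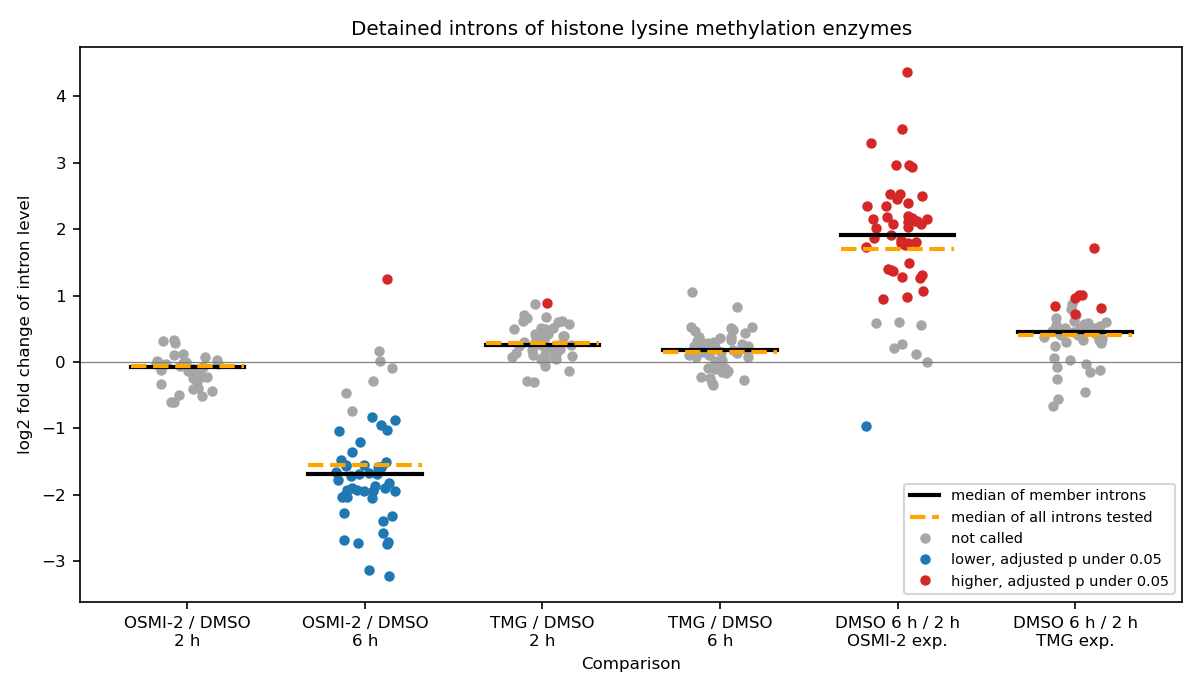
Log2 fold change of the level (y axis) of each member detained intron tested, 1 point per intron, in 6 comparisons (x axis). Blue points fell and red points rose at an edgeR adjusted p under 0.05, black lines are the members' medians and dashed orange lines the medians of all introns tested; members and all introns sit at -1.69 and -1.55 with OSMI-2 at 6 h, and at 1.91 and 1.70 between DMSO 6 h and 2 h of the same experiment.

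KDM1A carried the 1 member intron that rose with TMG. KDM1A_E010 (chromosome 1, 23385661 to 23395031, plus strand, 9371 bases) took 0.264%, 0.243% and 0.354% of the gene's counts (41, 41 and 53 counts) in the DMSO 2 h libraries and 0.533%, 0.60% and 0.499% (75, 87 and 80 counts) after 2 h of TMG. All 3 TMG libraries were above all 3 DMSO libraries, with a log2 fold change of 0.88 in level (SE 0.19, edgeR adjusted p 0.00428) and of 0.92 relative to the gene (SE 0.19, limma adjusted p 0.00521). In the authors' deposited table its bin usage had a log2 fold change of 0.93 and an adjusted p of 0.00018. KDM1A itself did not pass, at 326, 299 and 321 CPM with DMSO and 291, 306 and 320 CPM with TMG (log2 fold change -0.04, SE 0.05, edgeR adjusted p 0.660). Without TMG library b the intron missed the threshold by level (0.81, edgeR adjusted p 0.0577) and relative to the gene (0.85, limma adjusted p 0.0576), and it missed it in 1 fit of all libraries (0.92, edgeR adjusted p 0.128).

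This made 1 of 46 member introns higher and 0 lower at 2 h of TMG (edgeR; background 9.69% higher and 0.123% lower of 4056), and 1 of 45 higher relative to the gene (limma; background 10.2% higher and 0.0496% lower of 4031). The members' median log2 fold change was 0.25 and that of all introns 0.29. In 10 of 46 member introns every TMG library lay above every DMSO library, against a background of 30.6%, and in 0 below (background 0.814%). KMT2B_E037 was among them, at 0.349%, 0.601% and 0.689% with DMSO and 0.700%, 0.914% and 1.07% with TMG, but its log2 fold change of 0.71 (SE 0.25, edgeR adjusted p 0.0570) did not pass. The number of member introns called ran from 0 (without TMG b) to 4 (without DMSO b) when libraries were left out in turn, with 2 without DMSO a and 2 without TMG c.

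At 6 h of TMG 0 of 49 member introns passed by level (edgeR; background 0.166% higher and 0.0237% lower of 4219; 3 with an unadjusted p under 0.05; DESeq2 called 0) and 0 of 50 relative to the gene (limma; background 0.167% higher and 0.0239% lower of 4181; 1 with an unadjusted p under 0.05). KDM1A_E010 stood at 0.337%, 0.499% and 0.353% with DMSO and 0.383%, 0.410% and 0.612% with TMG, so that the groups overlapped (log2 fold change 0.27, SE 0.24, edgeR adjusted p 0.785). By percent of the gene, the TMG libraries were all higher in 4 of 49 introns and all lower in 0 (background 8.2% and 1.35%). Without DMSO 6 h library b, 3 member introns passed by level and 1 relative to the gene.

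**Figure D2:**
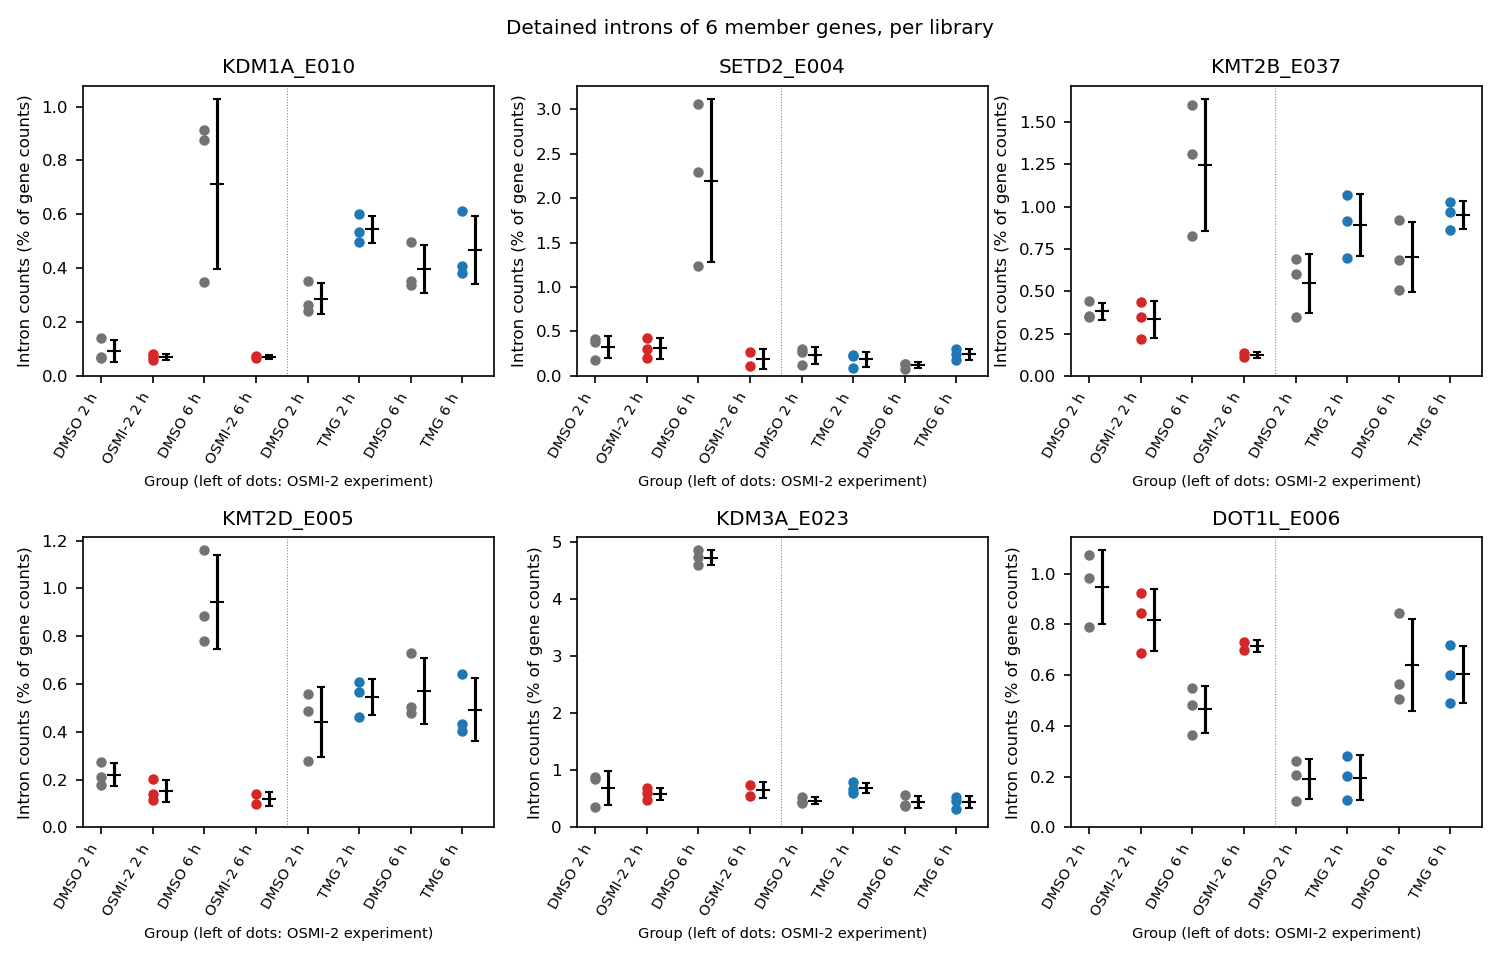
Counts of 6 member introns as percent of their gene's counts (y axis, starting at 0), 1 point per library, in the 8 groups (x axis); bars are mean and SD, grey is DMSO, red OSMI-2 and blue TMG, and the dotted line parts the experiments. KDM3A_E023 lies at 4.6% to 4.86% in the 3 DMSO 6 h libraries of the OSMI-2 experiment and under 1% in all other groups, while DOT1L_E006 is lower in those libraries than in both OSMI-2 6 h libraries.

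DOT1L, the H3K79 methyltransferase, holds an intron that ran against the others. DOT1L_E006 (chromosome 19, 2191240 to 2193687, plus strand, 2448 bases) had 18, 41 and 40 counts with DMSO at 6 h and 65 and 114 with OSMI-2, or 0.365%, 0.483% and 0.548% against 0.732% and 0.699% of the gene. Both OSMI-2 libraries were higher, with a log2 fold change of 1.25 in level (SE 0.35, edgeR adjusted p 0.000598). Relative to the gene it changed by 0.61 (SE 0.34) and did not pass (limma adjusted p 0.0801), whereas in the authors' deposited table its usage passed (log2 fold change 0.60, adjusted p 0.0175). The same intron was the only member intron called lower in DMSO at 6 h than at 2 h of the OSMI-2 experiment, at 1.07%, 0.982% and 0.789% at 2 h (log2 fold change of the level -0.97, SE 0.32, edgeR adjusted p 0.00477). In the TMG experiment it went the other way: 0.206%, 0.106% and 0.263% in DMSO at 2 h and 0.506%, 0.846% and 0.564% at 6 h (1.72, SE 0.36, edgeR adjusted p 0.000403). Both other DOT1L introns fell with OSMI-2 at 6 h.

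Turning to the genes, TMG for 2 h changed 4 of 46 members by small amounts. Of these 3 rose and 1 fell (edgeR; background 1.25% higher and 6.67% lower of 12361), and DESeq2 called 6 higher and 0 lower. KMT2E, a SET domain protein of the MLL family without clear methyltransferase activity, stood at 28.8, 32.3 and 31.9 CPM with DMSO and 34.0, 37.4 and 37.8 CPM with TMG (log2 fold change 0.23, SE 0.06, edgeR adjusted p 0.0247). SETD2 stood at 113, 123 and 127 CPM with DMSO and 136, 140 and 133 CPM with TMG (log2 fold change 0.17, SE 0.05, edgeR adjusted p 0.0380). In both genes every TMG library was above every DMSO library.

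KMT2A, the H3K4 methyltransferase MLL1, stood at 54.4, 61.6 and 58.8 CPM with DMSO and at 71.2, 68.4 and 60.8 CPM with TMG at 2 h. TMG library c lay below DMSO library b, and the log2 fold change was 0.20 (SE 0.06, edgeR adjusted p 0.0464). The merged SUV420H2 group fell from 21.7, 22.0 and 20.6 CPM to 19.2, 18.9 and 17.3 CPM (log2 fold change -0.22, SE 0.07, edgeR adjusted p 0.0461). Every TMG library was above every DMSO library in 9 of 46 members and below in 1 (background 8.13% and 18.8%). Of all members 31 of 46 had a log2 fold change above 0 (67.4%), against 40.5% of all genes. By role these were 7 of 8 in the H3K4 methyltransferase group, in which KMT2E is counted by family, and 5 of 5 H3K36 methyltransferases. These 2 roles had the highest medians, 0.12 and 0.14, against -0.03 over all genes. Other roles were mixed, with 4 of 6 H3K9 methyltransferases, 3 of 5 H3K4 and 3 of 6 H3K9 demethylases above 0. So were 1 of 2 H3K27 and 1 of 3 H3K36 demethylases, but not DOT1L. EZH2 (0.05, SE 0.05) and EZH1 (-0.01, SE 0.08) did not pass.

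These calls sat close to the threshold. The number of members called was 1, 2 and 4 without DMSO a, b and c, and 2, 0 and 1 without TMG a, b and c. In 1 fit of all libraries 0 of 46 passed, and with the trend on GC content removed 2 did. At 6 h of TMG 0 of 46 genes passed (edgeR; background 1.19% higher and 4.84% lower of 12103; 4 higher and 3 lower at an unadjusted p under 0.05), while DESeq2 called 1 higher and 1 lower. Without DMSO 6 h library a 2 passed, and without DMSO c 1. KDM6B, the inducible H3K27 demethylase, was nearest, at 24.6, 21.2 and 21.8 CPM with DMSO and 18.2, 18.4 and 19.2 CPM with TMG (log2 fold change -0.28, SE 0.08, edgeR adjusted p 0.0548), so that each TMG library was lower. In 9 members all TMG libraries were higher and in 5 all were lower (background 10.1% and 17.6%). KMT2E was again higher in each TMG library, at 52.9, 54.5 and 53.1 against 44.3, 50.9 and 49.7 CPM (0.15, SE 0.07, edgeR adjusted p 0.221).

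With OSMI-2 at 6 h 0 of 46 genes passed (edgeR; background 2.57% higher and 2.37% lower of 12484), with 7 higher and 2 lower at an unadjusted p under 0.05, and DESeq2 called 0 higher and 1 lower. In simulated counts with this design, 15 of 100 genes changed 2-fold and 83 of 100 changed 4-fold were called, so changes of 2-fold were mostly below what this comparison could call. The median log2 fold change was 0.34 over the members and 0.15 over all genes. With median-of-ratios size factors the medians were 0.48 and 0.30, with DESeq2 0.20 and -0.0032, and with TMM over genes alone 0.10 and -0.09, so the sign for all genes depends on the scaling and that for the members' median did not in these fits. Every OSMI-2 library lay above every DMSO library in 22 of 46 members (47.8%), against a background of 32.2%, and below in 4 (8.70%), against 14.9%.

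The H3K9 methyltransferases SUV39H1 and SUV39H2, which trimethylate H3K9 in heterochromatin, were among the highest. SUV39H1 stood at 37.1, 58.9 and 61.3 CPM with DMSO and at 88.8 and 93.1 CPM with OSMI-2 (log2 fold change 0.79, SE 0.30, edgeR adjusted p 0.0872). SUV39H2 stood at 6.97, 4.16 and 3.98 CPM with DMSO and at 9.40 and 9.89 CPM with OSMI-2 (0.94, SE 0.36, edgeR adjusted p 0.0983). For SETD2 the values were 78.0, 40.0 and 45.9 CPM with DMSO and 92.9 and 98.4 CPM with OSMI-2 (0.81, SE 0.30, edgeR adjusted p 0.0849). In these 3 genes both OSMI-2 libraries were above all DMSO libraries, and DMSO library a stood apart from DMSO b and c, below them in SUV39H1 and above them in SUV39H2 and SETD2.

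Without DMSO library a, 19 members were called higher and 1 lower (edgeR), when the GC trend was removed 18 were higher and 2 lower, and in 1 fit of all libraries 29 were higher and 2 lower. Of all genes, 34.2% were called higher and 8.21% lower without DMSO library a, 23.4% and 7.59% with the GC trend removed, and 39.5% and 7.54% in the fit of all libraries. The median log2 ratio over genes of counts per base in the 3′ part to those in the 5′ part of the exons, a sign of RNA quality, was 0.242 to 0.385 in the DMSO and 0.124 and 0.219 in the OSMI-2 libraries, without overlap, and its part in the result was not tested. These 3 settings were picked because they called more members, and most other alternatives called few or none, as given in the closing section. In all 3 settings 15 members were higher, namely ASH1L, DOT1L, EHMT2, KDM1A, KDM1B, KDM4B, KDM5B, KDM5C, SETD2, SETD5, SETD7, SETD8, SUV39H1, SUV39H2 and SUV420H1, and 1 was lower, SETD4. The share of all genes called in all 3 was not computed, so the list cannot be set against a background. SETD2 then had log2 fold changes of 1.2, 0.96 and 1.01 (edgeR adjusted p 0.00205, 0.00628 and 0.000516). In the fit of the 5 libraries EZH2 (0.02, SE 0.30), EZH1 (-0.37, SE 0.32), KDM1A (0.56, SE 0.32) and KMT2E (0.45, SE 0.35) did not pass; KMT2E passed without DMSO a (0.99, edgeR adjusted p 0.00510).

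**Figure D3:**
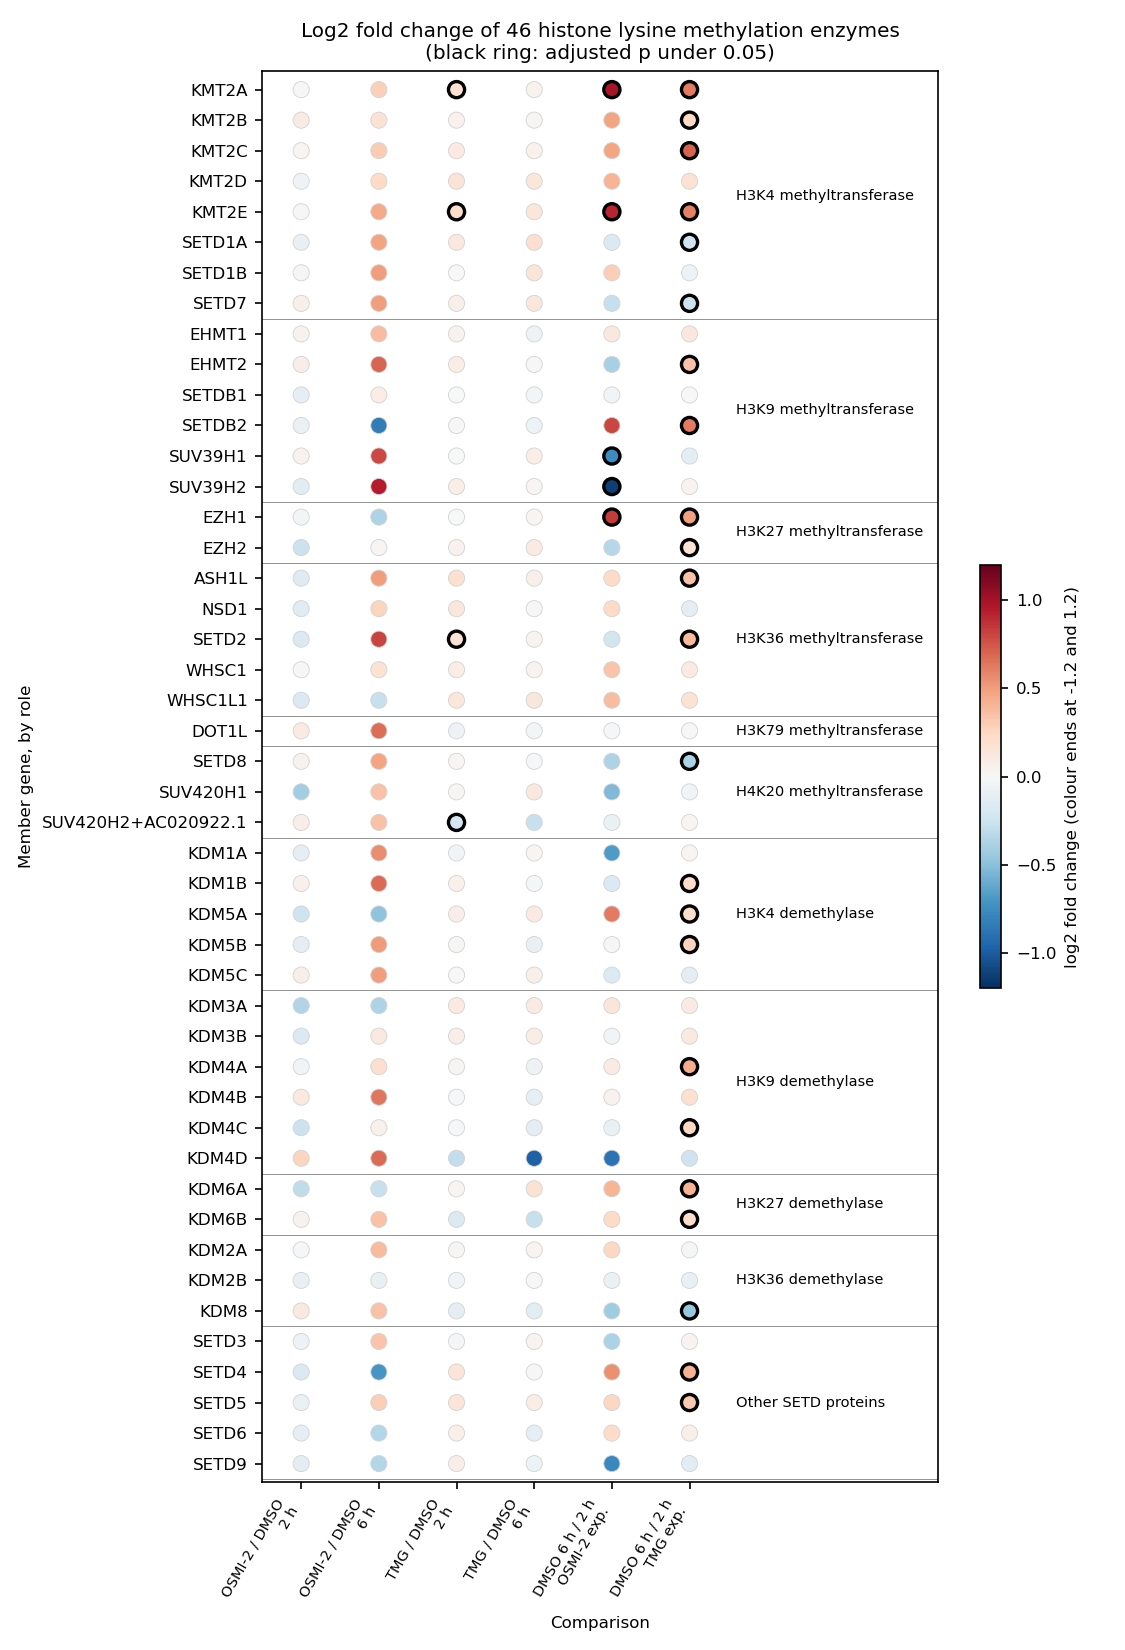
Log2 fold change (colour) of the 46 members (y axis, grouped by role) in 6 comparisons (x axis); a black ring marks an edgeR adjusted p under 0.05. Rings are seen for 4 genes with TMG at 2 h, 0 with OSMI-2 at either time and TMG at 6 h, 5 between DMSO times of the OSMI-2 experiment and 23 between those of the TMG experiment.

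Between drugs, the difference of the effects at 6 h (OSMI-2 minus TMG, an interaction term in 1 edgeR fit) passed for 12 member genes, all higher (background 16.9% higher and 2.97% lower of 12563). The largest was KDM4D, a low gene at 0.198 to 0.389 CPM in the OSMI-2 and 0.284 to 0.830 CPM in the TMG comparison, with a difference of 1.83 (SE 0.51, edgeR adjusted p 0.0251). The difference was 1.08 (SE 0.29) for SUV39H2, 0.94 (SE 0.31) for SETD2 and 0.69 (SE 0.23) for KDM1A. This count rested on single libraries. It was 42, 13 and 11 without DMSO 6 h libraries a, b and c of the OSMI-2 experiment. It was 0, 1 and 0 without DMSO 6 h a, b and c of the TMG experiment, and 1, 0 and 0 without TMG a, b and c. The share of all genes called in these fits is not given here, so 42 of 46 cannot be read as a result about these enzymes. At 2 h 0 of 46 genes and 0 of 47 introns differed between drugs (edgeR; background 0% in either direction for genes, 0.0464% higher and 0.209% lower for introns; 1 gene and 2 introns had an unadjusted p under 0.05). At 6 h 39 of 51 introns were lower and 1, DOT1L_E006, was higher (background 73.7% lower and 0.577% higher of 4677). Between times, the OSMI-2 effect at 6 h minus that at 2 h passed for 0 of 46 genes (edgeR; background 0.0158% higher and 0.095% lower; 4 at an unadjusted p under 0.05; 5 without DMSO 6 h library a) and for 33 introns lower and 1 higher (background 65.7% and 0.256%). The same difference for TMG passed for 0 genes (edgeR; background 0.0161% higher and 0.00807% lower; 0 at an unadjusted p under 0.05) and 0 introns (edgeR; background 0.0456% higher and 0.0228% lower; 2 at an unadjusted p under 0.05).

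From 2 h to 6 h in the DMSO libraries of the TMG experiment, 19 of 46 members rose and 4 fell (edgeR; background 16.3% higher and 29.6% lower of 12294), where the members' median was 0.12 (log2) and that of all genes -0.07. The share called in either direction, 23 of 46, was near that of all genes (45.9%). Of the H3K4 methyltransferase group 4 of 8 rose, KMT2E among them, and 2 fell, both H3K27 methyltransferases and both H3K27 demethylases rose, 3 of 5 H3K4 demethylases rose, and 2 of 6 H3K9 methyltransferases rose. The slope on GC content moved with time, from between -0.271 and -0.228 at 2 h to between -0.493 and -0.324 at 6 h. With the GC trend removed 22 members rose and 5 fell, and the share of all genes called in that fit is not given here. Coverage moved toward the 3′ end with time as well: the median log2 ratio of 3′ to 5′ counts per base over genes ran from -0.292 to -0.262 at 2 h and from -0.173 to -0.115 at 6 h, while over the members it overlapped (-0.0017 to 0.212 and 0.107 to 0.246). Its part in the result was not tested, and the members' median exonic length is above that of all genes, as given above. The 6 h libraries were all higher in 21 members and all lower in 4 (background 20.2% and 33.2%).

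KMT2C, partner of KMT2D at enhancers, rose most, from 37.9, 44.8 and 46.1 CPM at 2 h to 61.5, 73.3 and 75.6 CPM at 6 h (log2 fold change 0.71, SE 0.09, edgeR adjusted p 6.88e-07). KMT2A rose from 54.8, 62.0 and 59.2 to 81.2, 97.1 and 93.7 CPM (0.63, SE 0.08, edgeR adjusted p 9.11e-07), and KMT2E from 29, 32.5 and 32.1 to 43.5, 49.8 and 48.9 CPM (0.60, SE 0.08, edgeR adjusted p 1.99e-06). In all 3 genes the 2 times did not overlap. SETDB2 (0.63, SE 0.09), EZH1 (0.49, SE 0.09), KDM4A (0.44, SE 0.07), KDM6A (0.41, SE 0.08) and SETD2 (0.38, SE 0.07) also rose. SETD8, which monomethylates H4K20 and is tied to the cell cycle, fell from 82.3, 77.8 and 84.9 to 66.2, 58.3 and 63.5 CPM (log2 fold change -0.38, SE 0.07, edgeR adjusted p 0.000206). KDM8 (-0.46, SE 0.11) and SETD7 (-0.26, SE 0.08) fell too, and so did SETD1A (-0.25, SE 0.08), whose fall was gone with the GC trend removed (0.0048, edgeR adjusted p 0.959).

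In the OSMI-2 experiment 3 members rose and 2 fell over the same time (edgeR; background 4.59% higher and 14% lower of 12343). All 6 h libraries were higher in 8 members and lower in 5 (background 10.5% and 29.2%). KMT2A stood at 24.1, 36.1 and 42.1 CPM at 2 h and 77.4, 73.1 and 51.8 CPM at 6 h (log2 fold change 0.98, SE 0.26, edgeR adjusted p 0.0106). KMT2E (0.92, SE 0.32) rose with overlapping groups, and its change was 0.46 without DMSO 6 h library a (edgeR adjusted p 0.0980); EZH1 (0.84, SE 0.26) rose without overlap. SUV39H2 fell from 11.2, 10.2 and 8.69 to 6.28, 3.83 and 3.67 CPM (-1.13, SE 0.30, edgeR adjusted p 0.0104), and SUV39H1 from 78.4, 73.6 and 91.3 to 33.4, 54.3 and 56.5 CPM (-0.75, SE 0.26, edgeR adjusted p 0.0368). These are the DMSO 6 h libraries against which OSMI-2 at 6 h was compared. The count was 0 without DMSO 2 h library a, 1 without DMSO 2 h b, 2 without DMSO 2 h c and 15 without DMSO 6 h a. Shares of all genes called in these fits are not given here, so the counts show only how far single libraries set them.

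**Figure D4:**
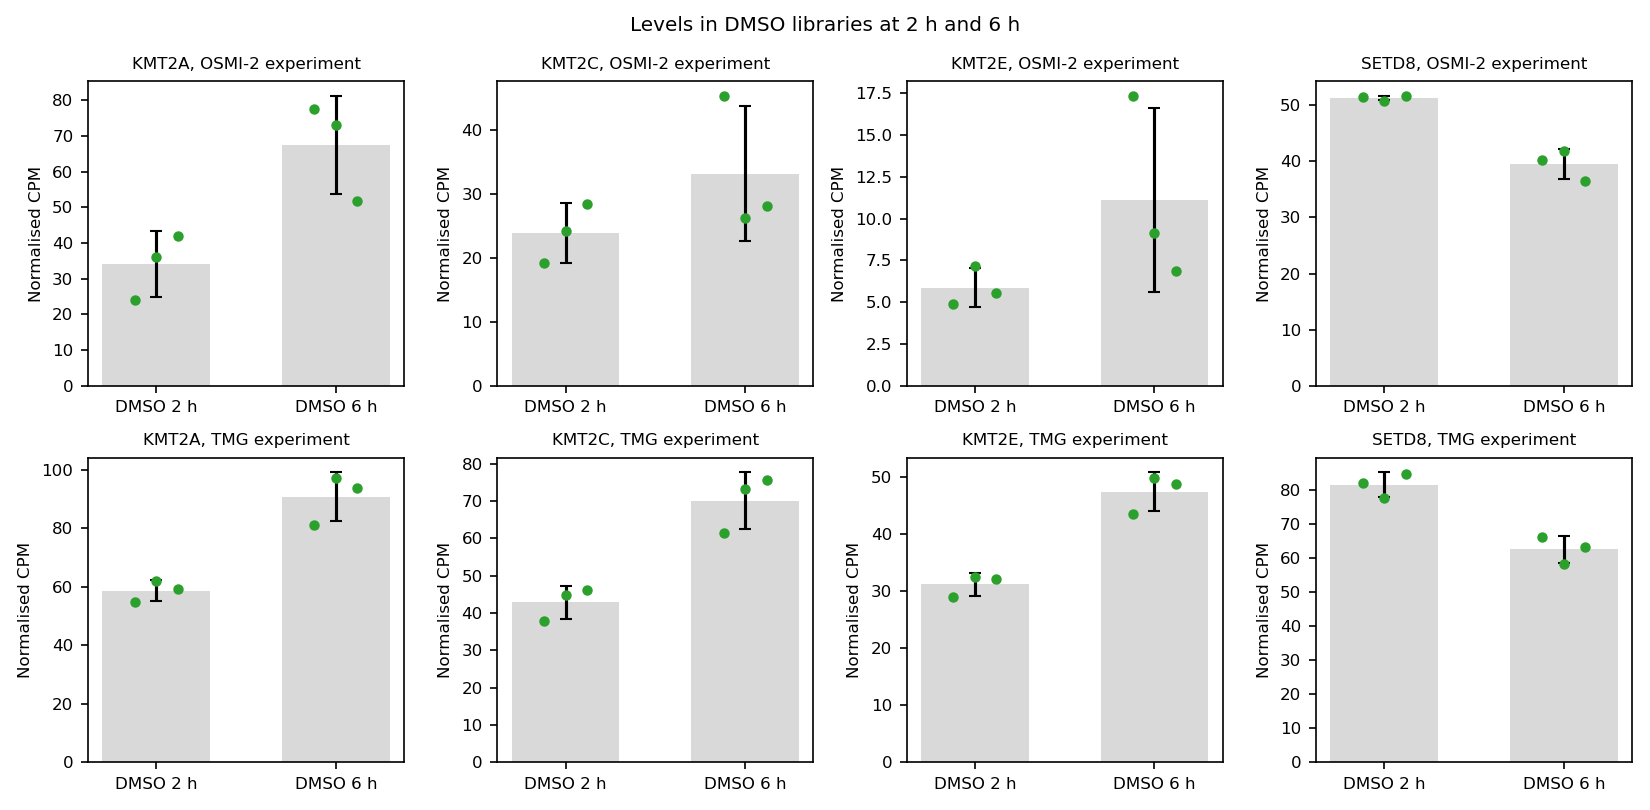
TMM-normalised CPM (y axis, starting at 0) of KMT2A, KMT2C, KMT2E and SETD8 in DMSO libraries at 2 h and 6 h (x axis) of both experiments; points are libraries, bars the mean and whiskers the SD of 3 libraries. In the TMG experiment KMT2A, KMT2C and KMT2E are higher and SETD8 is lower in each 6 h library than in each 2 h library.

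The introns moved with time as well. In the OSMI-2 experiment 43 of 51 rose and 1 fell from DMSO 2 h to 6 h (edgeR; background 88.5% higher and 1.79% lower of 4472). By percent of the gene, all 6 h libraries were higher in 41 and lower in 1 (background 89% and 1.77%). KDM6A_E028, in the X-linked H3K27 demethylase UTX and named after its values were seen, had 3, 2 and 0 counts at 2 h and 88, 44 and 32 at 6 h, or 2.27% to 3.43% of the gene at 6 h. In the TMG experiment 7 of 48 rose and 0 fell (background 21% higher and 0.904% lower of 4095), among them DOT1L_E006, KMT2D_E007 and 2 introns of KDM4A. By percent of the gene, the 6 h libraries were all higher in 7 and all lower in 2 (background 34.6% and 1.73%). That count was 1 without DMSO 2 h library a, 2 without DMSO 2 h c, 14 without DMSO 6 h a, 1 without DMSO 6 h b and 3 without DMSO 6 h c.

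Shown for comparison are the start regions of 3 MLL family genes that rose with time in DMSO of the TMG experiment, and of SETD8, which fell there. Each is the 250 bases before the gene's start in RefSeq (GRCh38.p14, a build other than that of the count tables), 5′ to 3′ on the gene's strand, with matches to the GC box letters GGGCGG and the CCAAT box letters CCAAT on either strand in capitals. KMT2A lies at chr11:118436242-118436491 (plus strand), KMT2C at chr7:152436004-152436253 (minus strand), KMT2E at chr7:105013955-105014204 (plus strand) and SETD8, listed there as KMT5A, at chr12:123383882-123384131 (plus strand).
KMT2A: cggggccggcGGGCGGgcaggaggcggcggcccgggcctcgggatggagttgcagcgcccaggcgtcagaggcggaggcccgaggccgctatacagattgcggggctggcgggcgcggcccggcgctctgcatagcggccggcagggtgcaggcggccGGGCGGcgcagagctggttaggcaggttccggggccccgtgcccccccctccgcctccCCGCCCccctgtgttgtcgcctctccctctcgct
KMT2C: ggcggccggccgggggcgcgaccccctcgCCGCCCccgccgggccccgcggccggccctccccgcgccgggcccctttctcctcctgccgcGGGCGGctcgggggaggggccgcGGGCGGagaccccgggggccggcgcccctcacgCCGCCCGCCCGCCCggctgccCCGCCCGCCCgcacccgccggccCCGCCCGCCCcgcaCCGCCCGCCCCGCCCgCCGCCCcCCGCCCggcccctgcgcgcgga
KMT2E: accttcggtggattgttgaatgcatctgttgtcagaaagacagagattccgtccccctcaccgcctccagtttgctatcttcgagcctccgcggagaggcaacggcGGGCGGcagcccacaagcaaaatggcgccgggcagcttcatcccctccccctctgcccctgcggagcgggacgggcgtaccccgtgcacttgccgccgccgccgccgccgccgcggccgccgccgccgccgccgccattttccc
SETD8: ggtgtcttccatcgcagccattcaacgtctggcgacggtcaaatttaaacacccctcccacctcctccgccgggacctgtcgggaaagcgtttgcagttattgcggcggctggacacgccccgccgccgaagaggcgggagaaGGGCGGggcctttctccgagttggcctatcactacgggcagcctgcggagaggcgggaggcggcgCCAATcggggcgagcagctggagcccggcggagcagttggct

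The GC content of these windows was 78.4% (KMT2A), 92.0% (KMT2C), 68.8% (KMT2E) and 66.4% (SETD8). KMT2A held 3 GC boxes, KMT2C 15, some of which overlap, KMT2E 1 and SETD8 1, and SETD8 alone of these held a CCAAT box. RefSeq start regions were matched for 43 of 46 members. The GC box was in 33 of these (76.7%), against 42.6% of all 35116 start regions in the table, and CCAAT in 15 (34.9%), against 32.0%. TATAAA was in 0 of 43, against 10.7%. The members' median GC content here was 66.8%, against 58.0% over all start regions. Members entered with 1 start region each, while the 35116 are all entries, with more than 1 for some genes. They were not limited to genes of the count tables, so the sets compared are unlike. A match describes letters only, and rising and falling members both hold GC boxes.

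Outside detained introns, the authors' deposited table of bin usage lists 1087 member bins with an adjusted p for OSMI-2 at 6 h, of which 22 were higher and 21 lower at an adjusted p under 0.05 (2.02% and 1.93%; background 1.79% higher and 2.28% lower of 147825), spread over 19 genes. At 2 h of OSMI-2 and at both times of TMG it called 0 member bins (background 0.00383% higher and 0.0051% lower at 2 h of OSMI-2, 0.076% and 0.064% at 2 h of TMG, and 0.0305% and 0.026% at 6 h of TMG). Bins that adjoin a detained intron made up 16.3% of the called bins (7 of 43) and 8.19% of all member bins with a value. The same shares over the bins of all genes were not computed, so this cannot be read as a trait of the members. The bins named here were chosen after their values were seen. DOT1L_E032, a bin of 646 bases between 2 detained introns, took 1.47% to 1.85% of the gene with DMSO and 0.676% to 0.754% with OSMI-2 (log2 fold change -1.17, adjusted p 9.57e-11 in the authors' deposited table).

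Other bins, most of those named here at the ends of genes, changed in usage in the authors' deposited table at 6 h of OSMI-2. WHSC1L1 (NSD3), an H3K36 methyltransferase, had 36.4% to 40.3% of its counts in its last exon bin E001 with DMSO and 23.2% to 26.8% with OSMI-2 (-0.69, adjusted p 9.30e-10). SETD3_E009, an alternative last exon of the actin histidine methyltransferase, took 0.968% to 1.98% with DMSO and 0.266% to 0.288% with OSMI-2 (-2.38, adjusted p 7.84e-06). EHMT2_E031, the first exon, rose from 0.258% to 0.289% with DMSO to 0.553% to 0.601% with OSMI-2 (1.02, adjusted p 1.08e-05). EZH2, which has no detained intron in the tables, had 10 to 16 counts with DMSO and 2 and 3 with OSMI-2 in EZH2_E006. This is an internal bin of 874 bases that the authors label as the distal form of an alternative 5′ splice site (-2.54, adjusted p 0.00131 in the authors' test of bin usage). The ranges of the 2 groups did not overlap in these bins. The median log2 ratio of 3′ to 5′ counts per base over genes differed too. It was 0.242 to 0.385 with DMSO and 0.124 and 0.219 with OSMI-2, so coverage with OSMI-2 leaned less to the 3′ end. Over the members it overlapped (0.609 to 0.843 with DMSO, 0.548 and 0.776 with OSMI-2). Its part in the usage of bins at the ends of genes was not tested.

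Of 9 PRC2 subunits and 9 genes of the KDM1A complex 0 passed in any drug comparison (edgeR; at an unadjusted p under 0.05, 2 PRC2 subunits with OSMI-2 and 3 with TMG at 6 h, and 1 gene of the KDM1A complex with TMG at 6 h). Of 11 COMPASS subunits, which assemble with the MLL enzymes, 1 passed, MEN1, which fell with TMG at 2 h (log2 fold change -0.21, SE 0.05, edgeR adjusted p 0.0120) and 6 h (-0.23, SE 0.06, edgeR adjusted p 0.0427). Of 8 genes measured that work with H3K9 methylation, ATF7IP, which stabilises SETDB1, rose with TMG from 31.9 ± 2.5 to 38.5 ± 0.6 CPM at 2 h (SD, n = 3; 0.27, SE 0.06, edgeR adjusted p 0.00816) and from 46.9 ± 3.8 to 59.4 ± 1.7 CPM at 6 h (0.34, SE 0.07, edgeR adjusted p 0.0117). Of 14 measured histone methylation enzymes outside the name patterns, SMYD3 fell with TMG at 2 h (-0.21, SE 0.07, edgeR adjusted p 0.0464). Of 12 genes of methyl donor and cofactor supply, MAT2A, which makes S-adenosylmethionine, fell with OSMI-2 at 6 h (-1.46, SE 0.33, edgeR adjusted p 0.00405), and SHMT2 fell with TMG at 2 h (-0.20, SE 0.05, edgeR adjusted p 0.0180). MAT2A also fell with time in DMSO of the TMG experiment, from 541 ± 23 to 183 ± 14 CPM (SD, n = 3; -1.57, SE 0.07, edgeR adjusted p 4.99e-14).

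Of 6 measured arginine methyltransferases, CARM1 (1.0, SE 0.32, edgeR adjusted p 0.0424) and PRMT2 (1.06, SE 0.33, edgeR adjusted p 0.0413) rose with OSMI-2 at 6 h. Both values rest on the DMSO 6 h libraries described above. From DMSO 2 h to 6 h of that experiment 2 of the 6 genes fell and 0 rose (edgeR). Their median log2 fold change there was -0.71, against -0.25 over all genes, and its part in the rise was not tested. PRMT2 was called lower with TMG at 2 h and higher at 6 h, but single libraries set these values: it ran from 209 to 1243 CPM among the DMSO 2 h libraries and from 149 to 16460 CPM among the TMG 6 h libraries. Between the DMSO times of the TMG experiment, 1 PRC2 subunit rose and 3 fell, with JARID2 at a log2 fold change of 0.70 (SE 0.08, edgeR adjusted p 1.77e-07) and PHF19 at -0.43 (SE 0.08, edgeR adjusted p 0.000185). In the same comparison 1 COMPASS subunit rose and 1 fell, 2 genes of the KDM1A complex rose and 2 fell, and 6 of the 14 other histone methylation enzymes rose and 3 fell, with PRDM10 at 0.91 (SE 0.09, edgeR adjusted p 2.75e-08).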

How the data were processed

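Polyadenylated RNA of HEK293T cells was measured in 23 libraries of a stranded kit. Reads were aligned with STAR to hg19, per the submitters' processing notes; the counter, the annotation and the strand setting are not given in the sources used here. The authors deposited 4 tables, 1 per drug and time, with raw read counts per bin (exon parts and introns) and library, with their test of bin usage: a log2 fold change, a p-value and its adjusted form, per the file headers. The deposited tables also give a mean of normalized counts per bin, a signal that was not used, and the deposited counts per index sequence in each lane entered no comparison.

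A gene's count is the sum of its bins other than detained introns, so a read that spans 2 bins may count in both. Library size is the table's total, 39465746 to 100161560, with TMM factors over genes and introns. Genes and introns were tested with edgeR 4.0.16 (quasi-likelihood, filterByExpr) within each table, and the ratio of intron to gene with limma 3.58.1 on log2 of counts plus 1 where both means were at least 10 (R 4.3.3). P-values were adjusted over all features by Benjamini-Hochberg, with a threshold of 0.05. The SE of edgeR values is the size of the fold change divided by the root of its F statistic. Differences of effects and the DMSO times come from joint edgeR fits. The DMSO libraries of both tables of a drug were joined for these. DESeq2 1.42.0, other scalings, no filter, trends on GC (known for 96.4% of genes) and length, and leaving out each library were alternatives; the GC fit and scaling of joint comparisons and a term for GC slope were added after seeing the data. The tests were checked on simulated counts, in which some calls fell on features left unchanged. Among gene calls these were 12.5% with the OSMI-2 6 h design and 8.68% with that of TMG at 2 h. Among intron calls they were 8.94% and 3.47%, and relative to the gene 2.67% and 5.77%. Several of these shares, among them both for genes, lay above what the threshold of 0.05 aims at.

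Members and lists were chosen with earlier results of these data known. Named are members and introns past the threshold in drug comparisons (beyond 12, the 6 largest rises and falls; by level, the 3 largest), the 3 highest and lowest members, EZH2, EZH1, KMT2E (MLL5) and KDM1A, OGT and MGEA5, and up to 2 genes a list and direction; others, among them most genes named at OSMI-2 6 h and between DMSO times, were chosen after their values were seen. One more library of OSMI-2 at 6 h in the labels is not used.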

Additional observations from a re-analysis of the deposited data

Results flagged for a closer look

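Several results differed between drugs or times by a test of the difference itself (edgeR interaction term, Benjamini-Hochberg adjusted). All of them include the DMSO 6 h libraries of the OSMI-2 experiment, in which detained introns held 1.58% to 2.19% of the members' counts, against at most 0.65% in the other libraries of that experiment, and the part of those libraries in the differences was not tested.

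The effect of OSMI-2 minus that of TMG at 6 h passed for 12 member genes, all higher (edgeR, against 16.9% higher and 2.97% lower of 12563 genes in all). The count ran from 0 to 42 with 1 library left out, and shares of all genes in those fits are not given here. On the log2 scale the difference was 0.69 for KDM1A, 0.94 for SETD2, 0.64 for SETD8, 0.86 for SUV39H1 and 1.08 for SUV39H2. It passed for 40 member introns, 39 of them lower (73.7% lower and 0.577% higher of 4677 introns in all), with 1.5 for DOT1L_E006, -2.84 for KDM1A_E010, -3.15 for KDM3A_E023, -3.42 for KMT2B_E037, -2.51 for KMT2D_E005, -2.27 for KMT2D_E007 and -3.46 for SETD2_E004.

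The effect of OSMI-2 at 6 h minus that at 2 h passed for 34 member introns, 33 of them lower (edgeR; 65.7% lower and 0.256% higher of 4693 introns in all). The difference was 1.31 for DOT1L_E006, -2.27 for KDM1A_E010, -2.78 for KDM3A_E023, -3.08 for KMT2B_E037, -2.19 for KMT2D_E005, -2.72 for KMT2D_E007 and -2.41 for SETD2_E004. For genes 0 of 46 passed (edgeR; 4 at an unadjusted p under 0.05).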

How the results depend on the processing

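No paired analysis was possible because the columns of the tables carry letters and no replicate numbers. For genes at OSMI-2 6 h the count of 0 became 2 with median-of-ratios factors, 1 with DESeq2, 31 in 1 fit of all libraries, 20 with the GC trend and 1 with the length trend removed. Introns there went from 45 to 11 with TMM over introns only, and relative to the gene from 47 to 21 with a minimum mean count of 50, where fewer introns were tested. At TMG 2 h the 4 genes became 0 in the fit of all libraries and 2 with the GC or the length trend removed, and the 1 intron became 0 in the fit of all libraries and, relative to the gene, 0 with a variance trend on the mean log ratio. At TMG 6 h the 0 genes became 2 with DESeq2, 1 with TMM over genes only, 3 with the GC and 1 with the length trend removed. With the GC trend removed, genes went from 5 to 19 between DMSO times of the OSMI-2 experiment, from 12 to 29 for OSMI-2 minus TMG at 6 h (27 with median-of-ratios factors) and from 0 to 8 for OSMI-2 at 6 h minus 2 h; SETD1A between DMSO times of the TMG experiment reversed to 0.0048. Where no construction is named, the cause was not tested.

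With 1 library left out, genes ran from 0 to 20 (OSMI-2 6 h), 0 to 4 (TMG 2 h), 0 to 2 (TMG 6 h), 0 to 15 (DMSO times, OSMI-2 experiment), 0 to 42 (OSMI-2 minus TMG, 6 h) and 0 to 5 (OSMI-2, 6 h minus 2 h). The lone library left of OSMI-2 6 h is then assumed to vary like the others. Apart from settings with shares given above, the share of all genes called is not given for the alternatives of this section. Such counts show only how the calls depend on the processing and on single libraries. Introns ran from 0 to 4 and, relative to the gene, 0 to 3 at TMG 2 h, from 0 to 3 and 0 to 1 at TMG 6 h, and from 1 to 14 between DMSO times of the TMG experiment, against 37 to 46 at OSMI-2 6 h. Of the other alternatives for counts, 64 stayed within 1.5 times the count reported and 20 did not; for named genes and introns 422 values kept direction and call, 51 lost and 5 gained the call and 1 reversed. Counts of 10 to 100 reads per intron limit what could be called there.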
